A study of Mus musculus with 15 samples.

Results

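Lysosomal hydrolases and cathepsins are the enzymes that break down protein, glycogen, sugar chains and lipid in the acid interior of the lysosome. Here 36 genes were followed: 10 cysteine cathepsins and legumain, 3 other proteases, 10 glycosidases, 5 genes of sulfate and lipid breakdown, 6 membrane proteins of the lysosome, and the transcription factors Tfeb and Tfe3. They were taken by gene symbol from a table of 45706 genes, by a rule that names no threshold on their values. All 36 were found, and all 36 passed the filter on low counts, among 17650 genes tested.

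The cells were lymphatic endothelial cells of female C57Bl/6 mice, sorted as Pdpn+ CD31+ CD45- from pooled cervical, axillary, brachial, inguinal and popliteal lymph nodes, and kept in MEMα medium with fetal bovine serum. The treatments compared lasted 72 h: no added growth factor (unstimulated), 10 ng/mL and 100 ng/mL of recombinant murine VEGF-C made in HEK-293E cells, with 5 libraries each, A to E. VEGF-C is the secreted ligand of the receptor Flt4 on lymphatic endothelium. No label states that the libraries of a group were separate cultures or animals. The p-values therefore speak of the spread from library to library, part or all of which may be technical.

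Most lysosomal hydrolases are made in the endoplasmic reticulum, tagged with mannose phosphate in the Golgi and carried to the lysosome by receptors. Cathepsins are made as inactive precursors that are cleaved in the acid lumen, partly by one another and by legumain. Many of the genes carry a short palindromic promoter element built around an E-box, which Tfeb and Tfe3 bind when they enter the nucleus. Cathepsins also process antigen in endosomes and, once secreted, cut the extracellular matrix.

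The promoters are shown first because the E-box is a sequence feature that many lysosomal genes are known to carry. RefSeq windows (assembly GRCm38.p6) from 250 bases before to 50 bases after each start were searched on both strands for CACGTG, for TCACGTGA and for GTCACGTG, the longer ones each containing the first. Of the 36 genes, 33 had a window, in 39 windows, and Ctsb, Ctsh and Asah1 had none. The 250 bases before the start are given 5′ to 3′ for Ctsd and Ctsl, which rose at 100 ng/mL, for Gla and Gaa, which fell, and for Lamp1, which did neither. Capitals mark each CACGTG, and all of these genes are among the 11 of 33 that hold one.
Ctsd (chr7:142387828-142388077, minus strand): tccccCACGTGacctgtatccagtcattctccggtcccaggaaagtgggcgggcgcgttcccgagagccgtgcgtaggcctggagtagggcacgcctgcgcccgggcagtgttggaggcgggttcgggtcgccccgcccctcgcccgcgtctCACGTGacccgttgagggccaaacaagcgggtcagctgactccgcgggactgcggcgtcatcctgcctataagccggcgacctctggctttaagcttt
Ctsl (chr13:64370521-64370770, minus strand): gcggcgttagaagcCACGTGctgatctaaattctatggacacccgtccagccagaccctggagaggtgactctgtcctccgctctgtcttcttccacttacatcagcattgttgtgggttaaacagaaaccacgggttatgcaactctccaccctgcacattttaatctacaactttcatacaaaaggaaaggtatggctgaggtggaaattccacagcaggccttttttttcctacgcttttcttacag
Gla (chrX:134601006-134601255, minus strand): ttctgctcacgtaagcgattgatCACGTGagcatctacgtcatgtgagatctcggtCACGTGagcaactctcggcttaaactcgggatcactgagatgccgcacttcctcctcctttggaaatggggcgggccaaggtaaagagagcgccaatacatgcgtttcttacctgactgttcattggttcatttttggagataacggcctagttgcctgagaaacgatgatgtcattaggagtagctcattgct
Gaa (chr11:119267713-119267962, plus strand): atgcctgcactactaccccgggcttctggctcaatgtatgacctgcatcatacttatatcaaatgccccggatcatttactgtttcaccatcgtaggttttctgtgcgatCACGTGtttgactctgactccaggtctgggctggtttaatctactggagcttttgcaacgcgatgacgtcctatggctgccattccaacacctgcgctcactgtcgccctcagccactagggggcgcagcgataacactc
Lamp1 (chr8:13158911-13159160, plus strand): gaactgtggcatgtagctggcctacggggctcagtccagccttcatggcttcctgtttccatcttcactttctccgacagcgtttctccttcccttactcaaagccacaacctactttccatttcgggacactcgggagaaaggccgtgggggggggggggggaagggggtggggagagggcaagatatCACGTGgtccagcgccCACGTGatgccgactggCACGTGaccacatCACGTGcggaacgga

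In the Ctsd window the E-boxes began 245 and 98 bases before the start, and in the Gla window 227 and 194 bases before it. Ctsl and Gaa had 1 each, at 236 and 140 bases, while Lamp1 had 4, at 61, 45, 28 and 15 bases. CACGTG was present in 11 of the 33 genes with a window (33.3%), against 11.3% of the 10870 tested genes with one and 7.15% of all 32851 windows. TCACGTGA was in 4 of the 33 (12.1%, against 2.03% of tested genes and 0.974% of all windows), and GTCACGTG in 8 (24.2%, against 4.55% and 2.25%). The other genes with CACGTG were Glb1, Lgmn, Mcoln1, Naglu, Ctsf and Ctsa. Lgmn and Ctsa each had more than 1 window and held it in only 1 of them. The only Ctsl window (chr13:64370471-64370770) lay wholly within the gene's GENCODE M21 span (chr13:64359337-64370890, minus strand). Its E-box therefore lay downstream of that annotated 5′ end. The Ctsd E-box 98 bases before the start and the Mcoln1 E-box at 45 bases likewise lay within their gene spans. So did those of Naglu, Lgmn and Ctsa. By response to 100 ng/mL, CACGTG was held by 3 of 4 genes that rose (Ctsl among them), 3 of 10 that fell and 5 of 19 that did neither. These are matches of letters, given as a description without a test.

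Before VEGF-C, the 36 genes spanned a wide range of transcript level. Ctsd, the main aspartic protease of the lysosome, led with 515 ± 66.3 RPKM (counts scaled to gene length and library total; mean ± SD, n = 5), ahead of Psap, the precursor of the saposin lipid activators, with 335 ± 46.8 RPKM. Lamp1, an abundant coat protein of the lysosomal membrane, stood at 241 ± 22.4 RPKM, and the endopeptidase Ctsl at 184 ± 25.7 RPKM. The unstimulated libraries of Ctsd lay above all of those of Psap (408 against a highest of 393 RPKM), while those of Lamp1 and Ctsl overlapped. Cd63 (116 ± 15.3 RPKM), Ctsb (115 ± 7.08) and Lgmn (99.3 ± 16.5) followed and did not differ beyond their spread. At the low end were Ctss (3.75 ± 1.19 RPKM), Ctsk (3.65 ± 1.48), Tfeb (1.31 ± 0.0977) and Ctsc (1.28 ± 0.438). Ctss overlapped Ctsk and Tfeb overlapped Ctsc, while Ctsk and Tfeb did not overlap.

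**Figure D1:**
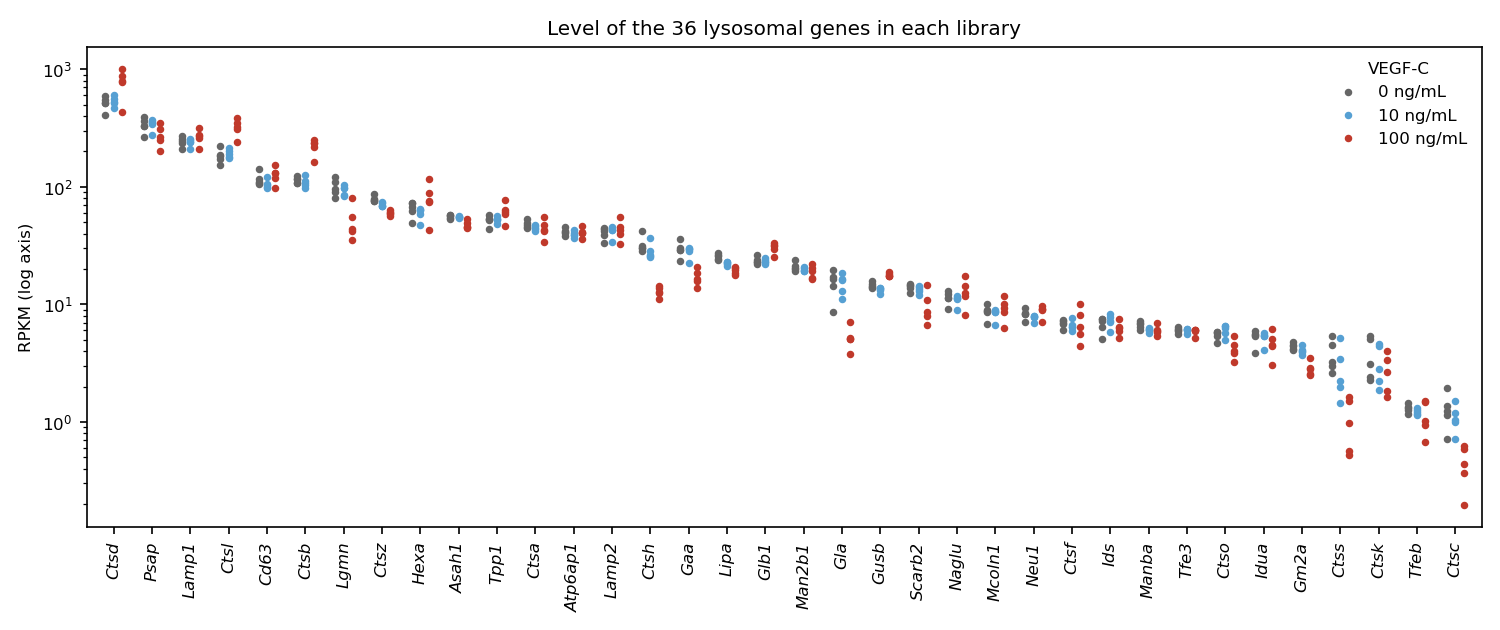
Level of each of the 36 genes in RPKM on a log axis, 1 point per library, coloured by VEGF-C dose and ordered by the unstimulated mean. Ctsd was the most abundant, at a mean of 515 RPKM unstimulated and 776 RPKM at 100 ng/mL, while Ctss and Ctsc, near the low end, lay lower still in all 100 ng/mL libraries.

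Cd63 carries a limit of its own. A second gene model, Cd63-ps, matches its transcript at 98.0% over 858 bases, and the ratio of Cd63-ps to Cd63 counts was 1.08 with a coefficient of variation of 0.44% over the 15 libraries. The level of Cd63 is therefore uncertain. Of the 36 genes, 13 overlap another annotated gene, 5 of them on the same strand (Ctsd, Ctsl, Ctss, Glb1 and Manba). How reads shared between genes were counted is not stated in the labels or the file.

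All 15 libraries had between 27784906 and 38590841 estimated counts. The first principal component of log2 CPM held 64.8% of the variance and parted the 100 ng/mL libraries (38.8 to 78.5) from the rest, with library B of 100 ng/mL nearest to the others. The second held 12.6% and set 1 library of each dose apart, namely E of the unstimulated group (-41.1), D of the 10 ng/mL group (-28.2) and B of the 100 ng/mL group (-45.1). Endothelial markers Cdh5, Pecam1, Flt4 and Prox1 were present in every library, and Ccl21a was near 0 (mean 0.47 estimated counts). The lymphatic endothelial list also holds general endothelial genes such as Cdh5 and Pecam1. Of its 11 tested genes 8 were higher at 100 ng/mL and 1, Emcn, was lower (log2 fold change -0.77). Prox1 (0.98, edgeR adjusted p = 0.0589) and Pdpn (0.30, adjusted p = 0.453) did not pass. Markers of other cells fell: 14 of 18 leukocyte markers (with 1 higher), 13 of 15 fibroblastic and mural markers and 4 of 6 epithelial markers (with 1 higher). Summed over each list, leukocyte markers held 96.5 to 253 CPM unstimulated, 92.1 to 220.1 at 10 ng/mL and 81.5 to 126 at 100 ng/mL. The means of this sum were 164, 140 and 98.2 CPM. Cd14, the 1 leukocyte marker that rose (log2 fold change 1.31), held means of 16.0, 22.1 and 39.8 CPM of it. Mrc1, which did not pass, held 8.50, 7.61 and 12.3 CPM. The sum thus fell less than most of its markers, as the median log2 fold change of the 18 was -1.71. Fibroblastic and mural markers held 3210 to 4702, 2696 to 4457 and 956 to 1395 CPM. Of these sums Thy1 alone held 1067 ± 93.5, 1005 ± 103 and 738 ± 65.6 CPM. The leukocyte gene Ptprc (CD45) was above 0 in all libraries, Cd163 (mean 0.73 estimated counts) was too low to test, and Lum, Ccl19 and Epcam were near or at 0. In bulk libraries, fewer cells of a type and less RNA per cell cannot be told apart.

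At 100 ng/mL the lysosomal genes moved in both directions. The 5 that rose against unstimulated cells were the proteases Ctsb, Ctsl and Ctsd and the glycosidases Glb1 and Gusb. The 12 that fell were Ctsc, Ctsh, Ctso, Ctss, Ctsz and Lgmn among the cysteine proteases, the glycosidases Gaa and Gla, the lipid genes Lipa, Asah1 and Gm2a, and the membrane protein Scarb2. Leukocyte and fibroblastic markers fell at the same dose as these 12, and their part in the falls was not tested. The remaining 19, among them Tfeb, Tfe3 and 5 of the 6 membrane genes, did not pass the test. A gene is called where edgeR's quasi-likelihood test gave a Benjamini-Hochberg adjusted p under 0.05 over all genes.

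The 17 of 36 called genes make 47.2%, near the 42.9% of all genes tested that were called in the same comparison. Those that rose were 13.9% of the 36, against 21.4% of all genes, and those that fell were 33.3%, against 21.5%. For 12 of the 36 (4 higher, 8 lower) the 100 ng/mL and unstimulated libraries were fully separated, against 27.2% of all genes tested. The median log2 fold change of the 36 was -0.09, that of all genes 0.0078. Leaving out library B of 100 ng/mL raised the number that rose from 5 to 10 and changed the number that fell from 12 to 10, with 21.7% of all genes higher and 22.6% lower in that fit. Leaving out library C of 100 ng/mL instead kept the 17 calls and added Psap and Manba as falls. Their edgeR adjusted p in that fit were 0.0458 and 0.0369. With 3 surrogate variables (hidden factors estimated from the data) in the model, 28 of the 36 were called (9 higher, 19 lower), as were 58.1% of all genes. The falls added there were Ctsk, Ctsa, Idua, Man2b1, Manba, Psap and Tfeb, and the rises Tpp1, Hexa, Naglu and Lamp1.

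**Figure D2:**
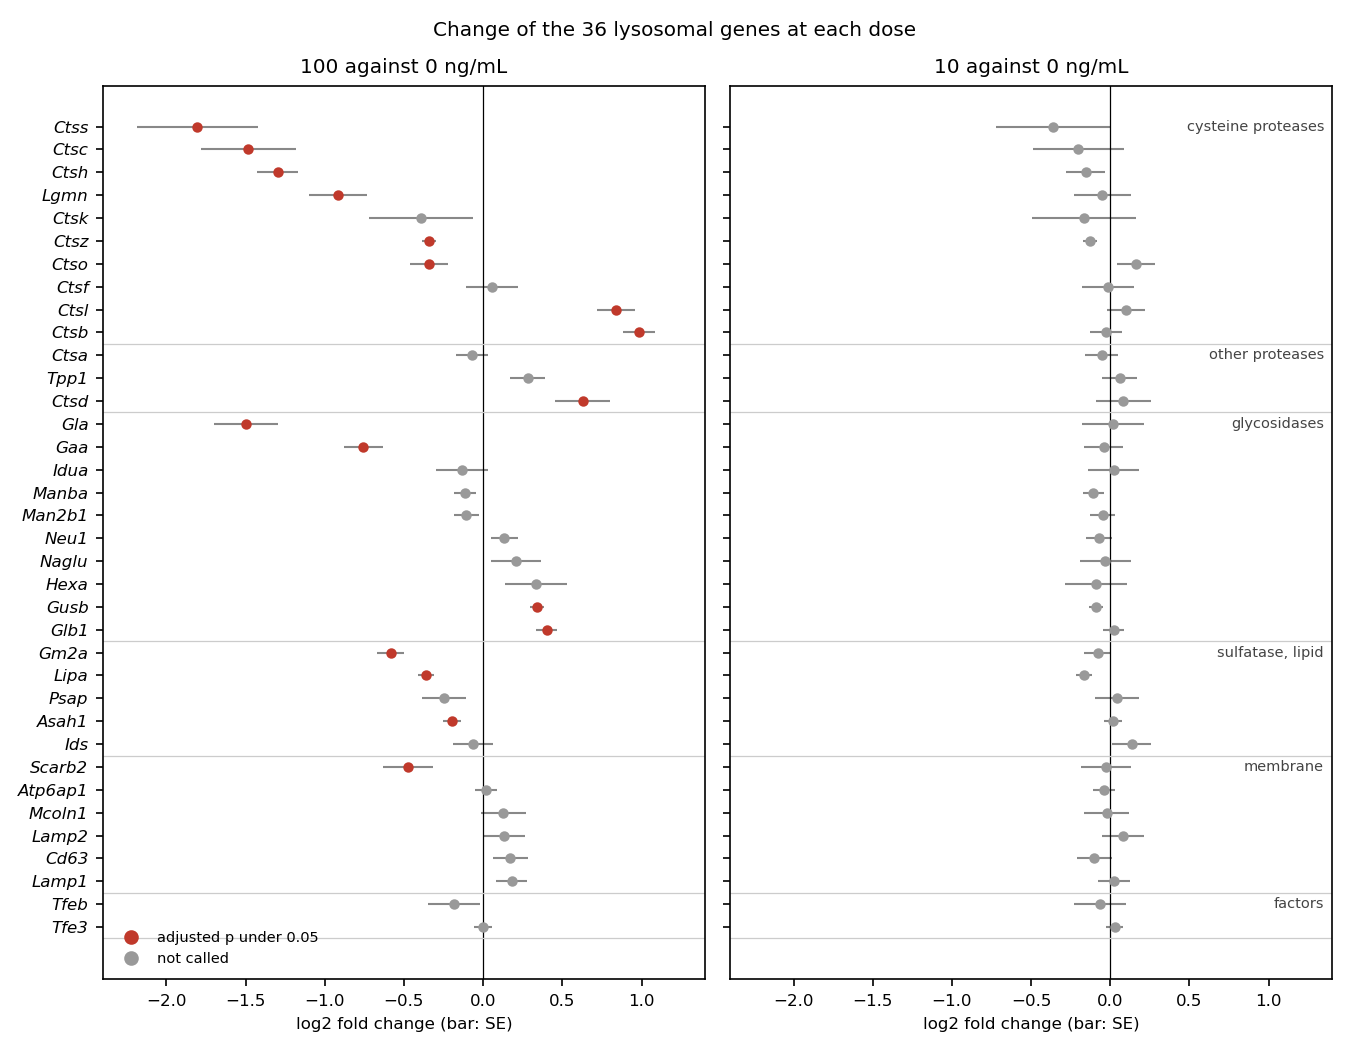
Log2 fold change of each of the 36 genes with its standard error, for 100 ng/mL (left) and 10 ng/mL (right) against unstimulated, in blocks by role; red points passed an adjusted p of 0.05. At 100 ng/mL values ran from -1.81 (Ctss) to 0.98 (Ctsb), and at 10 ng/mL no point passed.

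The cysteine cathepsins split. Of these 10 genes 2 rose and 6 fell (20% and 60%, against 21.4% and 21.5% of all genes), with a median log2 fold change of -0.37. Ctsb (chr14:63122462-63145923), a protease that cuts both within chains and at their ends, had 905, 799, 866, 816 and 848 CPM in unstimulated libraries A to E. At 10 ng/mL it had 743, 814, 844, 954 and 797 CPM, and at 100 ng/mL 1676, 1222, 1901, 1800.2 and 1776 CPM. Every 100 ng/mL library lay above all 10 others, with B the lowest of them. The log2 fold change at 100 ng/mL was 0.98 ± 0.10 (SE; edgeR adjusted p = 2.85e-06). The gene Fdft1, which makes squalene, overlaps Ctsb on the opposite strand over 774 bases and moved the other way, from 33.6 ± 1.20 to 16.6 ± 1.39 CPM (log2 fold change -1.01 ± 0.06).

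Ctsl (chr13:64359337-64370890) is the widely expressed endopeptidase of the family. Its unstimulated libraries had 809, 681, 695, 645 and 551 CPM, those at 10 ng/mL 718, 753, 680.1, 649 and 815 CPM, and those at 100 ng/mL 1168, 897, 1462, 1224 and 1288 CPM. The 100 ng/mL group lay above both others without overlap, and its lowest library was again B. On the log2 scale the rise was 0.84 ± 0.12 (edgeR adjusted p = 5.97e-05).

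Among the cysteine proteases, Ctsh, Ctsc and Ctss fell most. Ctsh (chr9:90054152-90076089), an aminopeptidase, had 249.8, 255, 265, 361 and 233 CPM unstimulated and 109, 119, 124, 95.7 and 108 CPM at 100 ng/mL. Its 10 ng/mL libraries had 227, 242, 316, 221 and 219 CPM, which overlapped the unstimulated range. The 100 ng/mL values were tightly grouped and all below the other 10, at a log2 fold change of -1.30 ± 0.13 (edgeR adjusted p = 1.56e-06).

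Ctsc (chr7:88278085-88310888) encodes a dipeptidyl peptidase that activates the granule proteases of leukocytes. It had 12.2, 7.82, 20.997, 15.1 and 13.0 CPM unstimulated, 7.91, 16.6, 13.2, 11.3 and 11.1 CPM at 10 ng/mL, and 4.92, 6.58, 4.06, 2.19 and 6.89 CPM at 100 ng/mL. The 100 ng/mL libraries lay below all others, though the spread within each group was wide. This gave a log2 fold change of -1.48 ± 0.30 (edgeR adjusted p = 0.00102).

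Ctss (chr3:95526786-95556403) trims the invariant chain in antigen-presenting cells. It had 7.46, 6.63, 13.9, 11.7 and 7.94 CPM unstimulated, 3.79, 13.4, 8.88, 5.77 and 5.24 CPM at 10 ng/mL, and 2.55, 3.94, 1.38, 1.46 and 4.18 CPM at 100 ng/mL. The 100 ng/mL and unstimulated groups did not overlap, while 10 ng/mL A lay within the range of the high dose. Against unstimulated cells the log2 fold change was -1.81 ± 0.38 (edgeR adjusted p = 0.00145). Unstimulated C and 10 ng/mL B, the highest libraries of their groups for both Ctsc and Ctss, also had the largest sums of leukocyte markers in their groups (253 and 220.1 CPM), and the part of these markers in the result was not tested.

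Lgmn (chr12:102394084-102439813), the asparaginyl protease that processes cathepsins, fell from 430.1 ± 69.0 to 228 ± 79.5 CPM (log2 fold change -0.91 ± 0.18, edgeR adjusted p = 0.000962). Its groups overlapped, because 100 ng/mL C had 359.8 CPM, above unstimulated D with 352 CPM. The carboxypeptidase Ctsz fell by a small but even step, from 209 ± 9.21 to 165 ± 7.25 CPM (log2 fold change -0.34 ± 0.04), with no overlap. Ctso, a little-studied family member, fell from 52.3 ± 5.10 to 41.3 ± 7.96 CPM (log2 fold change -0.34 ± 0.12, edgeR adjusted p = 0.0325). Its groups overlapped, and the call was lost (adjusted p up to 0.0732) without any 1 of unstimulated B, C or D or of 100 ng/mL A, B or D. Ctsf (log2 fold change 0.06 ± 0.16) and the collagenase Ctsk (-0.39 ± 0.33) did not pass the test. Ctsk was highest in unstimulated A and C (15.02 and 14.4 CPM) and in 10 ng/mL B and E (13.2 and 12.8 CPM), the libraries whose fibroblastic and mural marker sums were the largest of their groups (4702, 4617, 4457 and 4312 CPM). At 100 ng/mL it was highest in C (11.7 CPM), where that sum was the smallest (956 CPM). At that dose Thy1 held a mean of 738 of the 1072 CPM. Thy1 ranged from 658 to 802 CPM over the 100 ng/mL libraries, and the sum from 956 to 1395 CPM. The part of these markers in the Ctsk values was not tested.

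**Figure D3:**
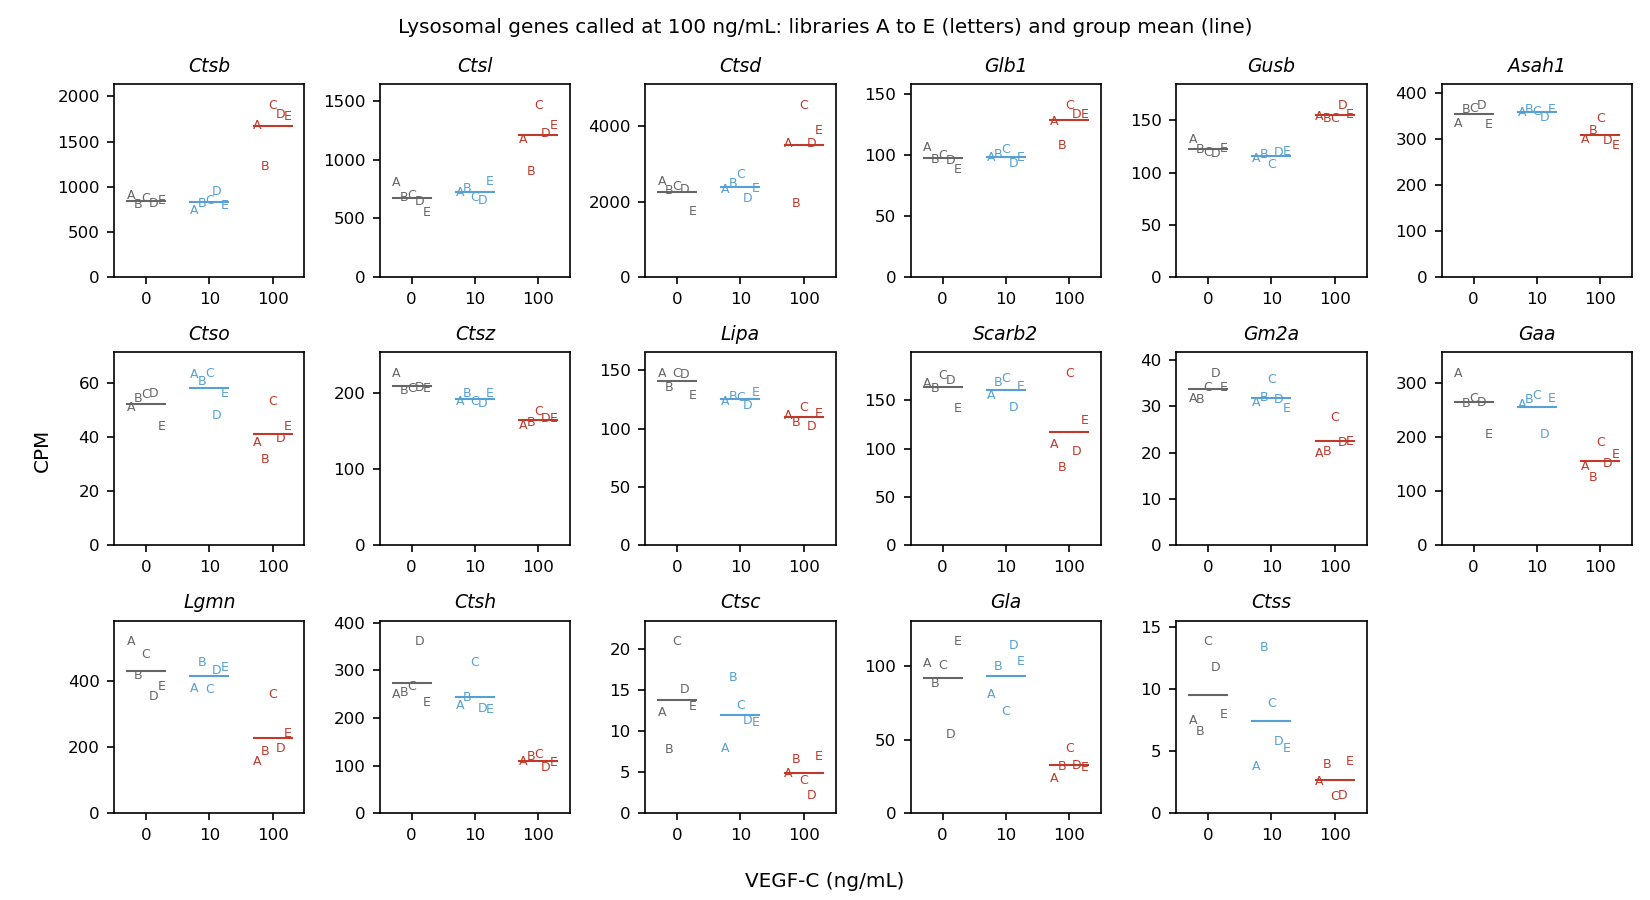
CPM of the 17 called genes in each library (letters A to E) at 0, 10 and 100 ng/mL, with the group mean as a line and each axis starting at 0. In the Ctsb panel the 100 ng/mL letters lie between 1222 and 1901 CPM, above all others, while in the Ctsd panel letter B of 100 ng/mL (1947 CPM) lies within the range of the lower doses.

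Of the proteases outside the cysteine class, Ctsd (chr7:142375911-142388038) rose and Ctsa and Tpp1 did not pass the test. Ctsd had 2542, 2301, 2406, 2315 and 1749 CPM unstimulated and 3535, 1947, 4560.2, 3558 and 3887 CPM at 100 ng/mL. Library B lay among the unstimulated values, and the other 4 lay above all of them. The log2 fold change was 0.63 ± 0.17 (edgeR adjusted p = 0.00854). Tpp1, which removes tripeptides from chain ends, went from 337 ± 34.7 to 409.6 ± 75.7 CPM (edgeR adjusted p = 0.0542), and it passed without 100 ng/mL B (log2 fold change 0.37, adjusted p = 0.00541) but had 0.18 (adjusted p = 0.157) without C. Ctsa, a carboxypeptidase that holds Glb1 and Neu1 in a complex, had 346 ± 25.9 and 329.7 ± 59.1 CPM (log2 fold change -0.07 ± 0.10).

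Among the 10 glycosidases 2 rose, 2 fell and 6 did not pass (40% called, against 42.9% of all genes), with a median log2 fold change of 0.014. Gla (chrX:134588149-134601125), the alpha-galactosidase lost in Fabry disease, had 102, 88.3, 100.24, 53.4 and 117 CPM unstimulated. It had 80.6, 99.8, 69.2, 114 and 103 CPM at 10 ng/mL and 23.9, 31.9, 44.2, 32.3 and 31.1 CPM at 100 ng/mL. The high dose lay below all 10 other libraries, of which unstimulated D was the lowest. Its log2 fold change was -1.50 ± 0.20 (edgeR adjusted p = 3.35e-05).

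Gaa (chr11:119267887-119285454), the acid glucosidase that degrades glycogen, had 317, 261, 271, 264 and 204 CPM unstimulated and 259.6, 268, 276, 205 and 271 CPM at 10 ng/mL. At 100 ng/mL it had 145, 126, 189.7, 152 and 168 CPM, below both other groups. The log2 fold change was -0.76 ± 0.12 (edgeR adjusted p = 0.000175). Unstimulated E and 10 ng/mL D were the lowest libraries of their groups, as they were for most of the 36 genes.

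The rises were smaller. Glb1, the beta-galactosidase, went from 97.6 ± 6.53 to 129 ± 12.4 CPM (log2 fold change 0.40 ± 0.07, edgeR adjusted p = 0.000201), and Gusb, the beta-glucuronidase, from 123 ± 5.11 to 155 ± 5.41 CPM (0.34 ± 0.04, adjusted p = 2.04e-05). Neither overlapped its unstimulated libraries. Tmppe lies within the Glb1 locus on the same strand, where the gene spans overlap over 6172 genomic bases, and the log2 fold change of Tmppe was 0.19 ± 0.05. Hexa, a subunit of beta-hexosaminidase, had 226 ± 35.0 and 285 ± 94.6 CPM (edgeR adjusted p = 0.193), with 100 ng/mL B at 154 and C at 417 CPM. Without B, Hexa passed at a log2 fold change of 0.49 (adjusted p = 0.0151), as did Naglu (0.33, adjusted p = 0.0433) and the sialidase Neu1 (0.20, adjusted p = 0.0339). Without 100 ng/mL C the values moved the other way, to 0.15 for Hexa (adjusted p = 0.524), 0.071 for Naglu (0.73) and 0.12 for Neu1 (0.34). Idua, Man2b1 and Manba had log2 fold changes between -0.13 and -0.11 and did not pass, though Manba did without 100 ng/mL C (-0.17, adjusted p = 0.0369), against -0.08 without B.

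All 5 genes of sulfate and lipid breakdown had negative log2 fold changes, and 3 passed (60%, against 42.9% of all genes). Gm2a (chr11:55098115-55113029), the activator that presents ganglioside to hexosaminidase, had 31.6, 31.5, 34.1, 37.1 and 34.1 CPM unstimulated and 30.7, 32.0, 35.9, 31.4 and 29.5 CPM at 10 ng/mL. At 100 ng/mL it had 19.8, 20.2, 27.6, 22.2 and 22.4 CPM, below every other library. The log2 fold change was -0.58 ± 0.09 (edgeR adjusted p = 6.90e-05). The acid lipase Lipa fell from 141 ± 8.56 to 109.9 ± 6.36 CPM (log2 fold change -0.36 ± 0.05) without overlap, and the acid ceramidase Asah1 from 354 ± 19.3 to 309 ± 23.3 CPM (-0.20 ± 0.06) with overlap. Psap had 1716 ± 244 and 1444 ± 296 CPM (log2 fold change -0.25 ± 0.14, edgeR adjusted p = 0.168), and it passed as a fall when 100 ng/mL C was left out (-0.35, adjusted p = 0.0458), against -0.16 without B. The sulfatase Ids had a log2 fold change of -0.06 ± 0.12.

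The membrane of the lysosome gave 1 call in 6 genes (16.7%, against 42.9% of all genes). Lamp1 (chr8:13159161-13175338) had 1109, 991, 1030.5, 1084 and 855 CPM unstimulated, 1029, 1031, 1096, 902 and 1094 CPM at 10 ng/mL, and 1133, 909, 1370.2, 1166 and 1163 CPM at 100 ng/mL. Its groups overlapped through library B. The log2 fold change was 0.18 ± 0.10 (edgeR adjusted p = 0.165), with 0.25 (adjusted p = 0.0314) without 100 ng/mL B and 0.11 (adjusted p = 0.4) without C. Mcoln1 (chr8:3500457-3515232), the calcium channel of the lysosome, had 59.8, 53.3, 54.0, 55.7 and 40.8 CPM unstimulated, 54.2, 53.4, 56.2, 41.3 and 54.4 CPM at 10 ng/mL, and 54.6, 39.3, 73.6, 58.5 and 62.0 CPM at 100 ng/mL. Its groups overlapped as well (log2 fold change 0.13 ± 0.14, edgeR adjusted p = 0.508). Scarb2, the receptor that carries glucocerebrosidase, fell from 163 ± 13.2 to 118 ± 37.9 CPM (log2 fold change -0.47 ± 0.16, edgeR adjusted p = 0.0262). That call was lost (adjusted p up to 0.0674) without any 1 of unstimulated C or D or of 100 ng/mL A, B or D, and also when only the 10 libraries compared were fitted. Lamp2, Cd63 and the proton pump subunit Atp6ap1 had log2 fold changes of 0.13, 0.17 and 0.02.

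Transcripts of the regulators did not pass in the model by group alone. Tfeb (chr17:47737030-47792419) had 12.3, 14.4, 14.1, 15.5 and 13.0 CPM unstimulated, 13.7, 13.0, 14.3, 12.3 and 12.9 CPM at 10 ng/mL, and 11.2, 7.38, 16.3, 10.33 and 15.7 CPM at 100 ng/mL. The high dose spread around the others on both sides (log2 fold change -0.18 ± 0.16, edgeR adjusted p = 0.402). With 3 surrogate variables in the model Tfeb passed as a fall (-0.27, edgeR adjusted p = 0.00592). Tfe3 (chrX:7762560-7775202) had 109, 105.4, 104, 107 and 93.3 CPM unstimulated, 108, 106, 109, 98.3 and 108 CPM at 10 ng/mL, and 107, 91.5, 107, 107 and 106 CPM at 100 ng/mL. The groups overlapped over most of their range (log2 fold change -0.0019 ± 0.06, edgeR adjusted p = 0.982). Both proteins are controlled largely by phosphorylation and location in the cell, which these data do not measure.

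At 10 ng/mL none of the 36 genes was called, and the same held for all genes tested (0%). An unadjusted p under 0.05 in edgeR's test was found for 2 of the 36 (Lipa and Ctsz) and 844 of all genes. DESeq2's Wald test called 0 of the 36 and 8 of all genes, and limma-voom called none. With 3 surrogate variables 0 of the 36 and 107 of all genes were called, with an unadjusted p under 0.05 for 6 of the 36 and 2754 of all genes. The log2 fold changes of the 36 ran from -0.36 to 0.16 with a median of -0.034. Only Ctsz had groups that did not overlap, with 185 to 199 CPM at 10 ng/mL against 203 to 226 CPM unstimulated, and such separation was seen in 1.31% of all genes. Lipa, with the smallest unadjusted p (0.00627), went from 141 ± 8.56 to 126 ± 4.25 CPM. Both of these genes had means at 10 ng/mL that lay between those of the other groups.

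Against 10 ng/mL, the high dose gave the same count as against no VEGF-C, with 5 of the 36 genes higher and 12 lower. Of all genes tested 40.5% were called in this comparison, 19.9% higher and 20.6% lower. The comparisons share the 100 ng/mL libraries and so are not independent. For Ctsb the log2 fold change was 1.01 ± 0.10, for Ctsl 0.74 ± 0.12, for Ctsh -1.14 ± 0.13 and for Gla -1.51 ± 0.20. Without 100 ng/mL B the number of higher genes was 11, with 20.2% of all genes higher in that fit.

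The 36 genes varied together within groups. Unstimulated E was the lowest of its group for 24 of the 36, 10 ng/mL D for 26 and 100 ng/mL B for 24, the same libraries that stood apart on the second principal component. Unstimulated A was highest for 22, 10 ng/mL C for 19 and 100 ng/mL C for 31. Such counts were not taken over all genes. The median coefficient of variation of the 36 was 10.08% unstimulated, 9.24% at 10 ng/mL and 17.5% at 100 ng/mL, against 7.90%, 6.73% and 9.88% for all genes of at least 10 CPM. Among the exceptions were Gla, for which unstimulated E was the highest library of its group, and Ctsb, for which 10 ng/mL D was (954 CPM). Gusb was another, with 151 to 164 CPM across the 100 ng/mL libraries. Over all genes, each unstimulated library deviated from its group most like 1 library of the 10 ng/mL group, and each like a different one. These r were 0.487 to 0.786 across genes, which are not independent replicates, and the letters always differed. Each 10 ng/mL library in turn was most like a different 100 ng/mL library, again of another letter (r = 0.210 to 0.428). Between unstimulated and 100 ng/mL the matches were not all to different libraries, as unstimulated A and B were both most like C (0.216 and 0.252). For unstimulated E and 10 ng/mL D, both low for most of the 36, r was 0.786. Each of them was also most like 100 ng/mL B (0.559 and 0.428). The labels give no such pairing, so none was fitted, and tests by group alone, at either dose, do not take it into account. The part of these libraries in the results beyond the values given without them was not tested.

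**Figure D4:**
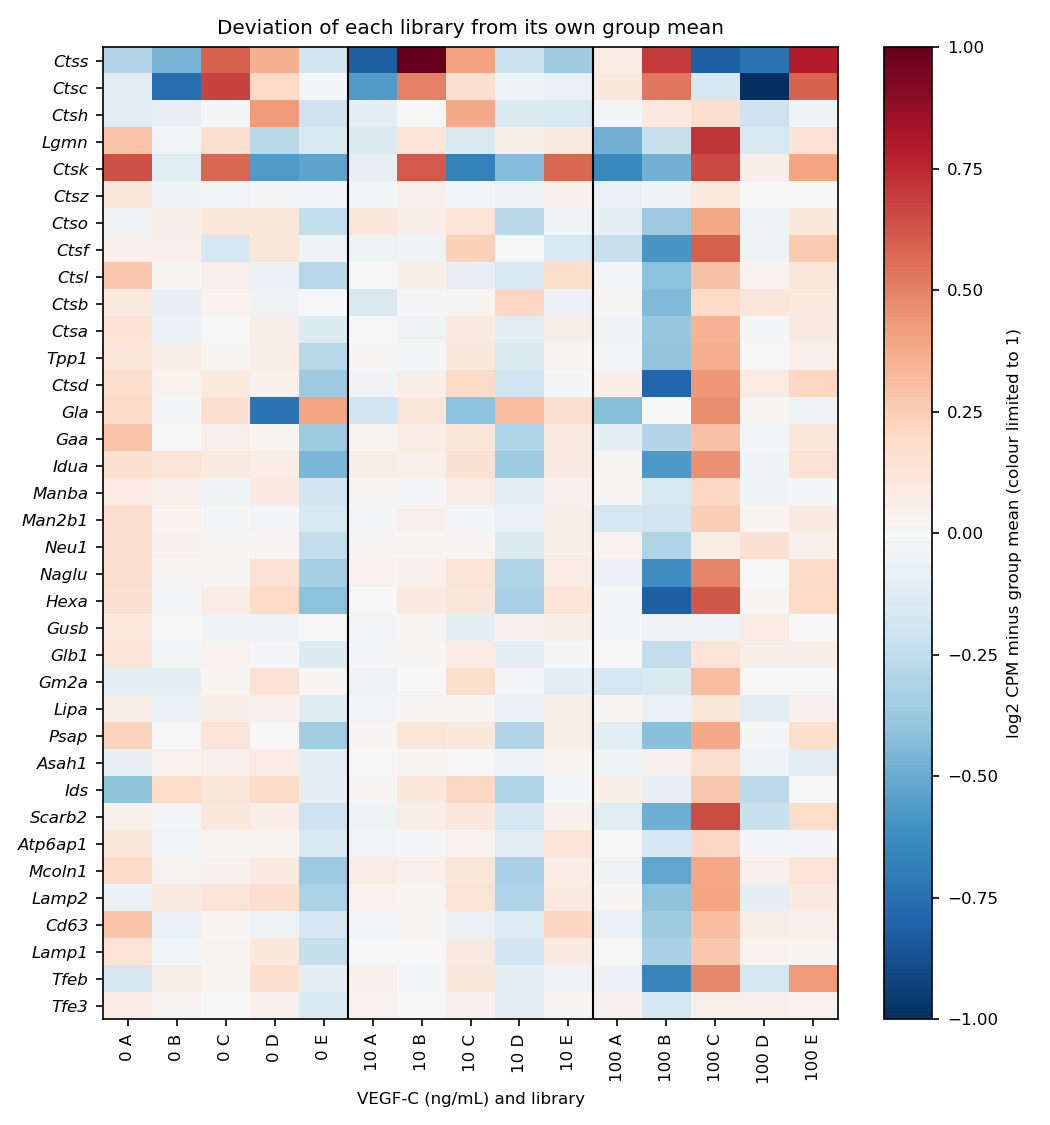
Log2 CPM of each gene in each library minus the mean of its own group (red above, blue below, colour limited to 1), with lines between the dose groups. Columns 0 E, 10 D and 100 B are blue for most genes, while 100 ng/mL C is red and was highest for 31 of 36.

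Genes that work with these enzymes were counted from lists chosen by function, all for 100 ng/mL against unstimulated. Of 33 other lysosomal hydrolases 6 rose and 9 fell (45.5% called, against 42.9% of all genes, with a median log2 fold change of 0.03). Pla2g15, a lysosomal phospholipase, rose by 0.44 ± 0.06 on the log2 scale. The acid phosphatase Acp5 (-0.96 ± 0.08) and the amidase Naaa (-1.78 ± 0.24) fell. Of 12 other cathepsins only Ctsm and Cts8 had enough counts to test, and both rose (0.75 ± 0.13 and 0.78 ± 0.15). Their ratios to Ctsl had coefficients of variation of 5.40% and 9.39% over the libraries, and whether they share reads with Ctsl was not tested. Among 3 tested inhibitors Cst6, a cystatin, fell (-1.01 ± 0.32).

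Acidification, sorting and regulation moved in part, at shares near that of all genes (42.9% called). The shares were 38.1% for proton pump subunits, 48.1% for membrane proteins and transporters and 40% for the sorting list. Of 21 tested proton pump subunits 6 rose, of which Atp6v1b2 (0.82 ± 0.12) and Atp6v0a2 (0.39 ± 0.06) had the smallest p, and 2 fell, Atp6v0e2 (-1.36 ± 0.16) and Atp6v0d2 (-1.55 ± 0.45). Of 27 lysosomal membrane proteins and transporters 6 rose and 7 fell, including the channel Tpcn1 (0.48 ± 0.06), the lysolipid exporter Spns1 (0.57 ± 0.09), Laptm4b (-0.82 ± 0.08) and the sterol carrier Npc2 (-0.58 ± 0.07). In the sorting list 6 of 25 rose and 4 fell. Gnptab, which makes the mannose phosphate tag, rose (0.24 ± 0.06), as did the adaptor subunit Ap3b1 (0.47 ± 0.07). The tag's receptor M6pr went from 169 ± 7.49 to 106 ± 4.12 CPM (-0.67 ± 0.05, edgeR adjusted p = 1.58e-07), and Ap1b1, a subunit of the adaptor that packs it at the Golgi, fell too (-0.59 ± 0.08).

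In the list of regulators on the lysosome 6 of 22 rose and 3 fell (40.9% called, against 42.9% of all genes). Mitf, a relative of Tfeb and Tfe3, went from 3.83 ± 0.903 to 7.38 ± 0.874 CPM without overlap (0.95 ± 0.14, edgeR adjusted p = 7.45e-05), and Rptor, the scaffold of the kinase complex mTORC1, rose by 0.42 ± 0.06. Lamtor4 (-0.43 ± 0.10) and Fnip2 (-0.61 ± 0.18) fell. Of 33 autophagy genes 9 rose and 4 fell (39.4% called). Atg7 (0.42 ± 0.06) and Wipi1 (0.55 ± 0.08) were the rises with the smallest p, and Atg101 (-0.57 ± 0.06) and Atg3 (-0.30 ± 0.04) the falls. No list beyond the small ones moved in 1 direction, and their shares are set beside those of all genes in the bar chart.

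**Figure D5:**
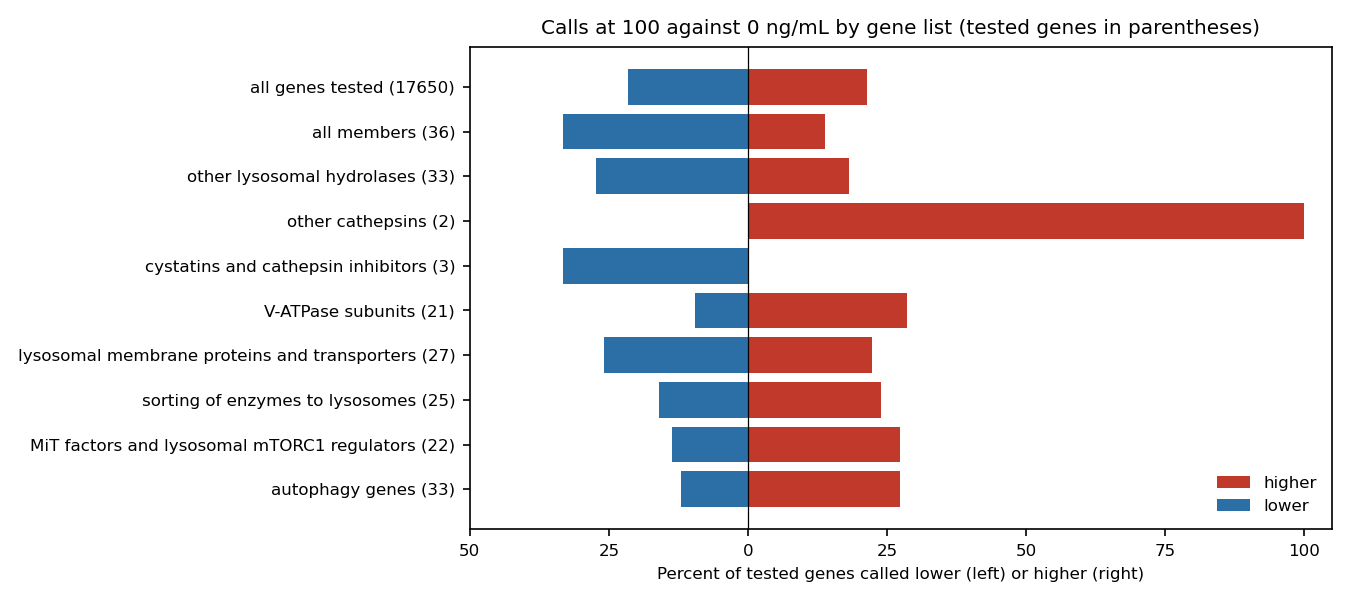
Percent of tested genes in each list called lower (left) or higher (right) at 100 ng/mL against unstimulated, with the number tested in parentheses. The 36 genes had 33.3% lower and 13.9% higher, against 21.5% and 21.4% of all genes tested; the lists of 2 and 3 genes are too short to read as shares.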

How the data were processed

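Poly-A RNA of 15 libraries was sequenced with a stranded kit, per the labels' protocols. The authors deposited estimated counts and RPKM values for each gene and library in 1 table, per the file headers; 64.3% of the estimated counts were fractional, and a second table was not used. The submitters' processing notes name FastQC, Bowtie2, limma, GRCm38 and mm10, while the counter and its handling of strand are not stated there or in the labels.

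Groups came from the sample titles. Estimated counts were rounded and filtered with filterByExpr, which left 17650 genes. With TMM scaling, edgeR 4.0.16 (R 4.3.3) fitted quasi-likelihood models to all 15 libraries by group alone, and p-values were adjusted by Benjamini-Hochberg over the genes tested, with calls under 0.05. CPM use TMM scaling. Levels between genes are compared on RPKM. The model was tested on simulated counts with few changed genes and no factor shared by the genes of a library. These data differ in both respects, so that test does not show how the model behaves here. Gene positions are from GENCODE M21 (GRCm38). Precision rests on 5 libraries per group. Libraries of a group differed beyond counting noise (smallest chi-square per degree of freedom 8.68).

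The 36 genes, the other lists and the settings were chosen with earlier results of these data known. Every gene of the 36 may be named. Values per library are given for those called at 100 ng/mL with a log2 fold change of at least 0.5 in size and no overlap with unstimulated, and for Tfeb, Tfe3, Lamp1 and Mcoln1, and also for Ctsd, which was added after its values were seen. In other lists, the 2 rises and 2 falls with the smallest p among called genes are named, except 1 gene that is not reported here. Alternative tests were the Wald test of DESeq2 1.42.0, limma-voom (limma 3.58.1), limma on log2 RPKM with a pseudocount of 1 or 0.1, a replicate block, and a fit of only the libraries compared. Alternative scalings were library size alone or the size factors of DESeq2, and the low-count filter was dropped or set at 10 CPM in 5 libraries. Each library was also left out in turn. Leaving out 3 libraries together and 3 surrogate variables (sva 3.50.0) were added after seeing the data.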

Additional observations from a re-analysis of the deposited data

Results flagged for a closer look

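In each group the highest and lowest library was compared with the rest (Dixon's test, gap over range above 0.71 for 5 libraries). Of 108 groups (36 genes at 3 doses) 13 held a library far from the other 4, where chance gives about 1 in 20 for independent groups. The 36 genes varied together, so 1 library can flag many genes and the rate is no measure of chance here. In 7 of the 13 it was 10 ng/mL D at the low end. There Gaa had 205 CPM (others 259.6 to 276), Idua 30.3 (40.1 to 43.1), Naglu 44.7 (56.4 to 60.5), Neu1 49.4 (55.6 to 56.8), Psap 1423 (1776 to 1907), Lamp2 612 (771 to 831) and Mcoln1 41.3 CPM (53.4 to 56.2). Unstimulated E was low for Tpp1 with 277 CPM (others 340.4 to 365) and for Idua with 27.6 CPM (40.0 to 42.4). Tfe3 had 91.5 CPM in 100 ng/mL B against 106 to 107 CPM in the other 4.

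Far above the rest were Ctsh in unstimulated D with 361 CPM (others 233 to 265), Ctsh in 10 ng/mL C with 316 CPM (219 to 242) and Ctsz in unstimulated A with 226 CPM (203 to 207). All of the Ctsh values at 100 ng/mL stayed below the lowest of these groups, 219 CPM.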

How the results depend on the processing

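Over 971 comparisons of a gene's call at 100 ng/mL with its call under another setting, 935 stayed on the same side of the threshold, 12 lost the call, 24 gained one and 0 turned a called direction. Of the uncalled genes, Ctsf, Ctsa, Atp6ap1 and Tfe3 changed sign in 4, 1, 7 and 5 settings. Of the 17 called genes 15 kept their call in every setting run, with Ctso and Scarb2 the exceptions (6 settings each). With 3 surrogate variables 28 of the 36 were called against unstimulated (9 higher, 19 lower; 58.1% of all genes) and 27 against 10 ng/mL (12 higher). Without the 3 libraries that stood apart 10 were higher against unstimulated and 11 against 10 ng/mL. Leaving out each library in turn gave 5 to 10 higher against unstimulated and 4 to 11 against 10 ng/mL, with 100 ng/mL B at both upper ends. For 10 ng/mL against unstimulated the count was 0 in every setting, with a smallest adjusted p of 0.0648 (surrogate variables).

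With the replicate block the count against unstimulated was 17. Libraries of 1 letter had correlations of -0.342 to 0.132 between groups, and no library correlated best with its own letter, so the letters do not pair them. Another scaling moved the median of all genes by under 0.1 on the log2 scale. Genes with few counts, such as Ctss and Ctsc, are measured with the least precision.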
